A study of Mus musculus with 40 samples.

Results

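The genes described here are 10 transcription factors and keratins of the early mouse embryo: the pluripotency factors Pou5f1, Nanog and Klf4, the trophectoderm regulators Tead4, Cdx2, Eomes, Elf5 and Tfap2c, and the keratins Krt8 and Krt18. They were followed in germinal-vesicle oocytes, the fully grown oocytes of the ovary, of control mice and of mice that lack the histone methyltransferase G9a or both G9a and Glp in a conditional deletion. A member was taken from the RNA table where a transcript locus overlapped the gene on the same strand. This held for 8 of the 10 genes, among 14064 genes with such a locus and 38540 loci in all. Nanog and Cdx2 had no such locus, so no RNA value is given for them. H3K9me2, dimethylation of lysine 9 of histone H3, was read from the 29 windows of 10 kb that cover the 10 genes, of 272158 windows in the table.

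Each sample was a pool of 100 to 200 oocytes from mice aged 22 to 25 days. RNA was sequenced in 3 controls and 3 G9a cKO libraries whose titles begin with GKAO, and in 3 controls and 2 G9a-Glp cDKO libraries whose titles begin with GKAQ. H3K9me2 was measured in 2 libraries per genotype by native chromatin immunoprecipitation with 250 ng of antibody per reaction. The same 2 control libraries, whose titles carry no such prefix, served both mutants. RNA titles label the controls WT and the mutants KO or DKO, and H3K9me2 titles label the controls Control. The Cre driver, the floxed alleles, the meaning of the prefixes and control alleles beyond WT are not given in the sources used here. Anything that the mutants and controls share thus cannot be named. The number of animals behind a library is not given either, so p-values measure a spread between libraries, which may be technical in part. For RNA the test used (limma) drew that spread mostly from loci of like abundance, not from each gene's own libraries. Fitted without that trend and without robust moderation, the SE of the Dppa3 log2 fold change in cDKO went from 0.08 to 0.18. The 15 bisulphite, 6 input and 2 IgG samples of the series were not analysed here.

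POU5F1 (OCT4) and NANOG hold the inner cell mass and embryonic stem cells in a pluripotent state, and KLF4 is a zinc-finger activator that helps to reprogram somatic cells to that state. TEAD4, brought into play when Hippo signalling is low, opens the trophectoderm programme in outer cells of the embryo, and CDX2, EOMES, ELF5 and TFAP2C act with or after it. KRT8 and KRT18 pair with each other into the intermediate filaments of simple epithelia, trophectoderm included. G9A (gene Ehmt2) and GLP (gene Ehmt1) form the complex that places H3K9me2, a mark of silent chromatin, and oocytes also store RNA of some of these factors for the embryo.

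RNA totals ran from 1458868 to 2399680 reads per library, so that 3 reads equalled 1.25 to 2.06 RPM (reads scaled to a library total of 1000000). Of the targeted genes, Ehmt1 had 31 to 36 reads per cDKO library against 144 to 173 in the controls (limma, log2 fold change -2.06, adjusted p = 1.09e-21). Ehmt2 had 2 to 11 reads in G9a cKO against 9 to 13 in its controls, and 5 reads in both cDKO libraries against 8 to 30. Its log2 fold changes of -1.55 and -1.45 did not pass the test (limma, adjusted p = 0.0971 and 0.121), and the G9a cKO library with 11 reads, labelled replicate 2, lay within the range of the controls. Reads outside the deleted exons would still count, so Ehmt2 checks the labels only weakly, and G9a cKO values below are those of the libraries labelled so. Oocyte RNA was present in every library: all 12 oocyte markers had a mean above 10 RPM and summed to 14500 to 17700 RPM. Of these 12, 8 passed an adjusted p under 0.05 in cDKO (limma, 5 higher and 3 lower) and 3 in G9a cKO. These were 66.7% and 25% of them, beside 15.8% and 5.22% of all loci at 10 RPM. Markers of other ovarian cells are given further on.

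Of the 8 members in the RNA table, 2 rose in cDKO oocytes, Klf4 and Krt8, and none fell. A locus was called at an adjusted p under 0.05 from limma, adjusted over all loci. In cDKO 6.34% of all loci were called, and 4.32% were called higher. Many loci hold no read, and among the 9091 loci with a mean of at least 10 RPM 15.8% were called and 8.63% were called higher. That split rests on the scaling: 1665 loci were called higher and 779 lower, against 1290 and 1140 after centring each library on its detected loci. In G9a cKO none of the 8 was called, where 1.79% of all loci and 5.22% of those at 10 RPM were.

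The difference between the cDKO and the G9a cKO effect was called for 1 member, Krt8, against 1.08% of all loci and 3.34% of those at 10 RPM. Between the GKAQ and GKAO controls, in which neither gene is labelled as deleted, none of the 8 members was called, against 3.87% of all loci and 14.8% of those at 10 RPM. The median log2 fold change of the 8 members was -0.37 in G9a cKO and 0.11 in cDKO, beside -0.31 and 0.20 over all loci. Most loci hold few or no reads and carry a value set by depth. Over the 9091 loci at 10 RPM the medians were 0.01 and 0.05. For the 3 members at that level, Pou5f1, Tfap2c and Klf4, they were 0.00 and 0.07. These 3 passed the 10 RPM level over all 11 libraries together, Krt8 passed it in 1 cDKO library only, and Eomes, Tead4, Elf5 and Krt18 had at most 2 reads in any library. In a pool, fewer cells that hold an RNA and less of it per cell cannot be told apart.

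**Figure D1:**
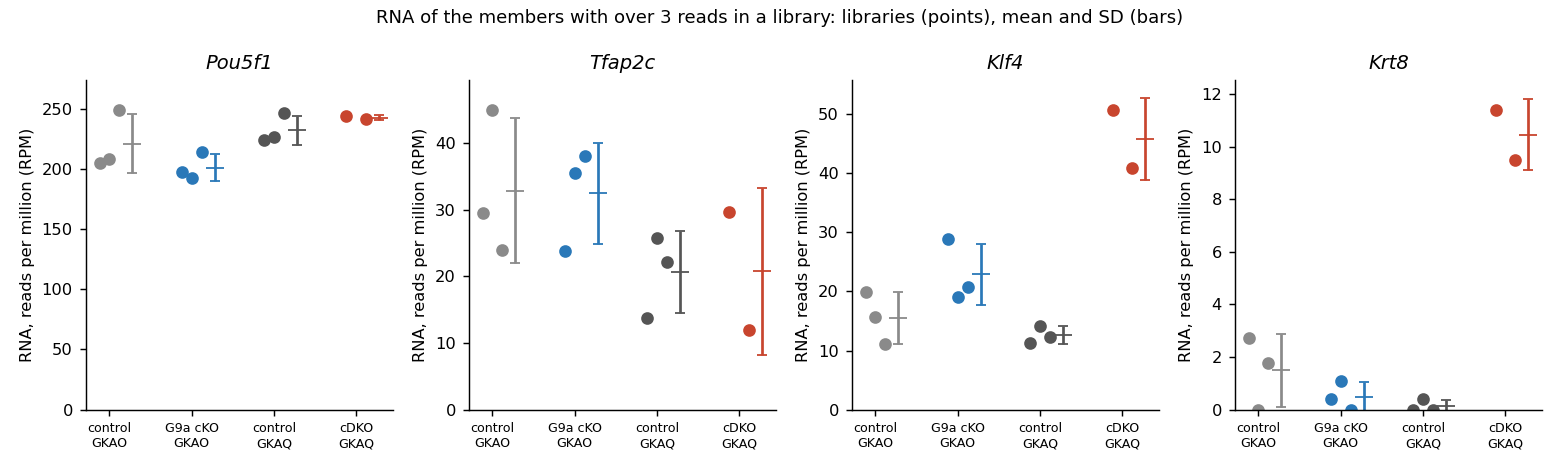
RNA of Pou5f1, Tfap2c, Klf4 and Krt8 in RPM (linear axes from 0) for each of the 11 libraries by genotype and title prefix, with the group mean and SD beside the points. The cDKO libraries of Klf4 (50.7 and 40.9 RPM) and Krt8 (11.4 and 9.49 RPM) sit above all other libraries. For Pou5f1 and Tfap2c, mutant and control libraries of the same title prefix overlap.

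Klf4, the zinc-finger pluripotency factor, was the member with reads in all libraries whose RNA moved most. Its locus was chr4:55527113-55532633 on the minus strand (GRCm38, the build in the submitters' processing notes, as for all loci here) and covered the whole RefSeq gene. The GKAQ controls held 11.3, 14.2 and 12.3 RPM (18, 34 and 25 reads), and the cDKO libraries 50.7 and 40.9 RPM (89 and 69 reads). Both cDKO libraries thus lay above the 3 controls, and above the other 6 libraries as well. Klf4 rose 3.63-fold (log2 fold change 1.86, SE 0.31, 95% interval 1.25 to 2.47, limma adjusted p = 3.43e-07). In the GKAO set the controls held 19.9, 15.7 and 11.1 RPM and the libraries labelled G9a cKO 28.8, 19.1 and 20.7 RPM. Those groups overlapped, and the log2 fold change of 0.57 (SE 0.28, 95% interval 0.03 to 1.12) did not pass (limma, adjusted p = 0.23, unadjusted p = 0.0394). The Klf4 effects of the mutants were not shown to differ: the difference was 1.29 (SE 0.42, limma adjusted p = 0.112). GKAQ and GKAO controls differed by -0.27 (limma, adjusted p = 0.545).

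Some RNA libraries share a number in their titles, 2 numbers in the GKAO set and 1 in the GKAQ set. Within a number the log2 difference of Klf4 was 0.70, 0.84 and 1.53. With that number as a replicate block, Klf4 in cDKO kept its direction at 1.53 but not its call (limma, adjusted p = 0.0722). Only 1 cDKO library and 1 control share a number there. Of the genes outside the member list described further on, Dppa3, Rif1, Elf2, Ehf, Amotl1 and Lama1 also lost their cDKO calls with this block, while Stat3 and Tjp1 kept theirs.

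Klf4 and Krt8 are the members that rose together, so their promoters are shown here with those of Krt18, the partner of Krt8, and of Pou5f1, the pluripotency factor with reads in every library and no called change. Each is the RefSeq (GRCm38.p6) window from 250 bases before to 50 after an annotated start, 5′ to 3′ along the gene, with matches to the GC box bound by SP and KLF factors (GGGCGG) and to the TATA box (TATAAA) on either strand in capitals. The windows are chr4:55532426-55532725 (minus strand) for Klf4, chr15:102004293-102004592 (minus strand) for Krt8, chr15:102027966-102028265 (plus strand) for Krt18 and chr17:35505782-35506081 (plus strand) for Pou5f1.
Klf4: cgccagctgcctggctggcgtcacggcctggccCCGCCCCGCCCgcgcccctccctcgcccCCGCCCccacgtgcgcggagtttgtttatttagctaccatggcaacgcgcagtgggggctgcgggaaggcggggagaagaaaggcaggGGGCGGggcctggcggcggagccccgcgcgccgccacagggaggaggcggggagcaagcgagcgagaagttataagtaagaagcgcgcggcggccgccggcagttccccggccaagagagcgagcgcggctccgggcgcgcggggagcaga
Krt8: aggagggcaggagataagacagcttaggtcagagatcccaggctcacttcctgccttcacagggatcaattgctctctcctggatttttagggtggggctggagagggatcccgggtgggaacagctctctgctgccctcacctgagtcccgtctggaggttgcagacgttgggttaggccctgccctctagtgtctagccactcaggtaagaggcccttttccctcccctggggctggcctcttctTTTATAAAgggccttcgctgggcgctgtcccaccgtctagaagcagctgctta
Krt18: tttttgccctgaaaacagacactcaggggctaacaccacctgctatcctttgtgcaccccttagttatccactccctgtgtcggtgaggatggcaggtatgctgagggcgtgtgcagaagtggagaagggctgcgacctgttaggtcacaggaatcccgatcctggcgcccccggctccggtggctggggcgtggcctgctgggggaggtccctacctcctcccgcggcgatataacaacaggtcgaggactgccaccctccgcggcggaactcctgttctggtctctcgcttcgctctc
Pou5f1: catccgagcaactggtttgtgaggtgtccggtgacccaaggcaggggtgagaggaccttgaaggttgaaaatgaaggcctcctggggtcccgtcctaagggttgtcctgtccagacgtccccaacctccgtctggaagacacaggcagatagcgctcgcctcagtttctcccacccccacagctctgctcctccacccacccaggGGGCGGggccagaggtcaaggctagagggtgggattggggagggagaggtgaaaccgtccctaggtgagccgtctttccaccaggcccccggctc

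The Klf4 and Krt8 windows differed in CpG content and in motifs. Klf4 held 40 CpG dinucleotides, more than 96.5% of the 32817 promoters of the table, and 4 GC box matches, where 35.6% of promoters hold at least 1. Krt8 held 6 CpG, close to the median of 7, no GC box match, and a TATA box match on each strand that overlap each other at the annotated start. A TATA box match occurs in 13.6% of promoters. Krt18 held 17 CpG and neither motif, and Pou5f1 held 11 CpG and 1 GC box match. AP-2 motifs (GCCNNNGGC), the kind bound by TFAP2C, were matched once each in the Klf4, Krt18 and Pou5f1 windows and not in that of Krt8, and 16.6% of promoters hold one. The TEAD motif (GGAATG, in 14.7% of promoters) was matched in none of these 4 windows. Tead4 and Tfap2c had no entry in the table.

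Krt8, a type II keratin of simple epithelia, was near absent from all libraries but those of cDKO. Its locus was chr15:101996711-102004374 on the minus strand. Its reads in cDKO were 20 and 16 (11.4 and 9.49 RPM), against 0, 1 and 0 in the matching controls. In the GKAO set it had 4, 0 and 3 reads in the controls and 1, 2 and 0 in the libraries labelled G9a cKO. No library of another group reached the reads of the cDKO libraries.
Against 3 reads in the shallowest GKAQ control, Krt8 was at least 5.54-fold higher in cDKO (limma, log2 fold change 4.46, SE 0.81, adjusted p = 4.18e-06), and the fitted value depends on how empty loci are filled. In G9a cKO the log2 fold change was -1.19 (95% interval -2.60 to 0.23, limma adjusted p = 0.242) at 0 to 4 reads per library. The 2 effects differed by 5.65 (SE 1.09, limma adjusted p = 0.000129). That call on the difference was lost with log2(RPM + 1) (3.94, adjusted p = 0.132), without the variance trend (5.65, adjusted p = 0.0521) and with voom weights (5.86, adjusted p = 0.0518), all from limma.

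Krt18, which encodes the filament partner of KRT8 and lies 24 kb away at chr15:102028216-102032026 on the plus strand, did not appear with it. It had 1 read in GKAO control replicate 1, 1 read in GKAQ control replicate 2 and 0 in the other 9 libraries, cDKO included. A count of 0 there allows up to 1.71 and 1.78 RPM in the 2 cDKO libraries, counting error only, below the 11.4 and 9.49 RPM of Krt8 there. None of the 6 loci within 100 kb of Krt8 was called in either mutant, keratins Krt79 and Krt78 included, with log2 fold changes of 0.98 and 0.95 in cDKO (limma, adjusted p = 0.441 and 0.565).

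Markers of cells that surround or cover the oocyte were read beside Krt8, a keratin that ovarian epithelia also make. In cDKO 4 of the 18 granulosa markers measured rose (Ptgs2, Inha, Fshr and Serpine2, chosen for naming after their values were seen) and none fell. These calls were 22.2% of the 18, beside 6.34% of all loci called in cDKO and 4.32% called higher. Of the 3 markers at 10 RPM 1 was called, where 15.8% of all loci at that level were. In G9a cKO none of the 18 was called, where 1.79% of all loci were. Ptgs2, a cumulus gene of the ovulatory response, had 25 and 30 reads in cDKO against 2, 1 and 1 in the GKAQ controls, so that no library of either group overlapped. Inha had 12 and 17 reads against 2, 10 and 2. The granulosa markers summed to 380 to 432 RPM in cDKO, 326 to 356 in the GKAQ controls, 389 to 436 in the GKAO controls and 326 to 362 in G9a cKO. Most of that sum came from Serpine2, Nr5a2 and Cyp19a1. Cyp19a1, the aromatase of granulosa cells, had 29.5 RPM in cDKO against 47.3 (log2 fold change -0.71, limma adjusted p = 0.0546), and Has2 and Amhr2 had no read in cDKO.
Of the 5 surface epithelium markers 1 rose in cDKO, Epcam, with 4 and 9 reads against 1, 1 and 1, while Krt7, Krt19 and Lgals7 had no read there. That call was 20% of the 5, none of which was at 10 RPM, beside 6.34% of all loci. The 5 markers summed to 5.12 to 9.49 RPM in cDKO and 1.48 to 2.92 in the GKAQ controls. The 8 theca and stroma markers summed to at most 5.00 RPM in any library, with 7 of 8 at 0 in cDKO. Of the 5 blood and endothelium markers, haemoglobin genes and Lyz2 were at 0 in cDKO, and Pecam1 made the sum of 76.3 to 90.1 RPM there, against 74.2 to 105 in the GKAQ controls. The part of such cells in the Krt8 and Klf4 results was not tested.

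**Figure D2:**
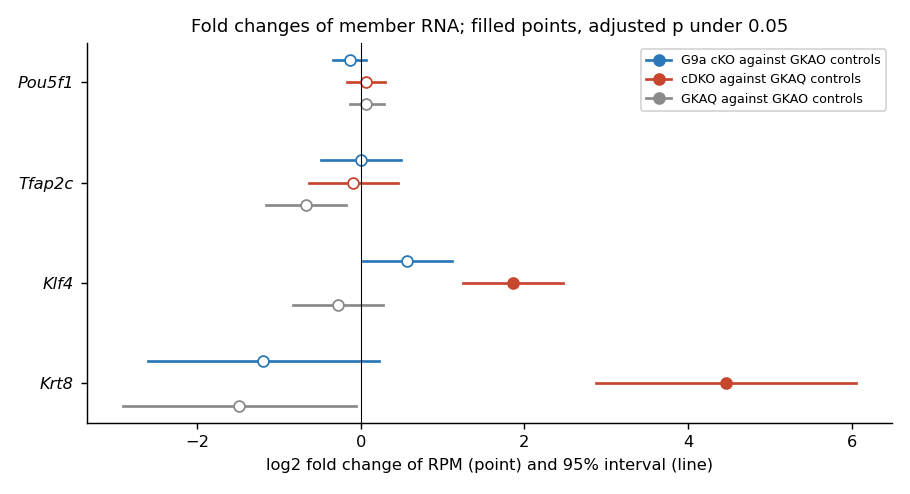
Log2 fold changes of RPM (points) with 95% intervals (lines) for the 4 members with over 3 reads in a library, for each mutant against its controls and for the 2 control groups against each other. Filled points mark an adjusted p under 0.05, which only Klf4 (1.86) and Krt8 (4.46) in cDKO reached among those drawn.

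Pou5f1 RNA, stored by oocytes, did not change beyond the spread of its libraries. Its locus, chr17:35506001-35510826 on the plus strand, lies 592 kb from Ehmt2 on the same chromosome. The GKAO controls held 205, 208 and 249 RPM and the G9a cKO libraries 197, 192 and 214 RPM. In the GKAQ set the controls held 224, 226 and 246 RPM and the cDKO libraries 244 and 241 RPM. The groups overlapped in both sets. The log2 fold changes were -0.13 in G9a cKO (95% interval -0.34 to 0.07, limma adjusted p = 0.365) and 0.07 in cDKO (95% interval -0.16 to 0.30, limma adjusted p = 0.698). After centring on detected loci the cDKO value was -0.03. An opposite-strand locus within Pou5f1 carried 73.6% to 84% of its reads and another 16% to 26.1%, and whether reads were counted by strand is not given, so part of the Pou5f1 count may be shared with them. Elf2, Tjp1 and Rif1, described below, also overlap an opposite-strand locus, so this limit holds for their counts too.

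Tfap2c, the AP-2 factor of trophoblast and germ cells, varied within every group. Its locus, chr2:172549591-172558622 on the plus strand, covered 69.8% of the RefSeq gene. It held 29.5, 45 and 24 RPM in GKAO controls and 23.8, 35.5 and 38.1 RPM in G9a cKO. The GKAQ controls held 13.8, 25.8 and 22.2 RPM, and the cDKO libraries 29.6 and 11.9 RPM, which lay above and below all 3 controls. The log2 fold changes were 0.00 in G9a cKO (95% interval -0.48 to 0.49, limma adjusted p = 0.992) and -0.09 in cDKO (95% interval -0.63 to 0.46, limma adjusted p = 0.822). Leaving out single libraries moved the cDKO value from -0.75 to 0.57. The GKAQ controls lay 0.67 below the GKAO controls on the log2 scale (-0.67, SE 0.25, limma adjusted p = 0.132), and this difference was called without GKAO control replicate 3 (-0.87, limma adjusted p = 0.0459).

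The remaining trophectoderm regulators were barely read. Eomes had 2 reads over the 11 libraries together, Elf5 had 5 and Tead4 had 6, with at most 2 in any library. For Tead4 these fell in the controls (2, 0 and 1 in GKAO, 0, 1 and 2 in GKAQ) and the 5 mutant libraries had none. The counts are too low for a fold in either mutant, and a difference below 3 reads per library was not detectable at this depth. The loci of Tead4 and Eomes, chr6:128225681-128237183 and chr9:118484841-118486068, cover 13.6% and 15.5% of the RefSeq gene, so reads elsewhere in these genes were not counted for them. The Elf5 locus, chr2:103424828-103449031, covers 62.2%.

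Among 21 other genes of the pluripotency network in the table, of 30 listed, 1 rose and 1 fell in G9a cKO, and 2 rose and 1 fell in cDKO. These 2 and 3 calls were 9.52% and 14.3% of the 21 genes. All were among the 13 of the 21 with at least 10 RPM, and over all loci at that level 5.22% and 15.8% were called. Stat3, the transcription factor of LIF signalling, rose in both mutants. It held 289, 285 and 284 RPM in G9a cKO against 234, 196 and 186, and 314 and 352 RPM in cDKO against 180, 207 and 199. No mutant library overlapped its controls (log2 fold changes 0.49 and 0.77, limma adjusted p = 0.000316 and 2.43e-09). Dppa3 (Stella), a maternal protein that protects the egg genome from demethylation, fell in both. It went from 494 ± 48.5 to 384 ± 14.2 RPM (SD, n = 3 each) in G9a cKO (log2 fold change -0.36, limma adjusted p = 8.38e-05), a call lost with all 6 controls as a single group (-0.88, limma adjusted p = 0.34). In cDKO it held 637 and 917 RPM against 992, 989 and 1070 (log2 fold change -0.41, limma adjusted p = 1.51e-05), a call lost without cDKO replicate 1 (-0.15) and with the replicate block (-0.11, limma adjusted p = 0.499). With all 6 controls its direction turned (0.11). Rif1, a replication timing and telomere factor, passed narrowly in cDKO (0.28, limma adjusted p = 0.0348) and was called in 3 of 14 settings. Esrrb, Sall4, Nr5a2 and Lin28a, further pluripotency regulators with at least 38.8 RPM in each group, were not called in either mutant, with log2 fold changes from -0.29 to 0.25.

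Among 25 other trophectoderm and Hippo genes, of 34 listed, none rose and 2 fell in each mutant, 8% of the list. That share lies beside 1.79% of all loci in G9a cKO and 6.34% in cDKO. Of the 15 genes at 10 RPM, 1 was called in G9a cKO and 2 in cDKO. At that level 5.22% and 15.8% of all loci were called. Tjp1 (ZO-1), a tight junction scaffold that helps seal the trophectoderm, fell in both, from 321 ± 7.60 to 234 ± 9.36 RPM in G9a cKO (SD, n = 3 each, log2 fold change -0.46, limma adjusted p = 0.000464). In cDKO it held 192 and 215 RPM against 307, 321 and 312 (log2 fold change -0.63, limma adjusted p = 9.68e-07). Amotl1, a Hippo scaffold of the angiomotin family, fell in cDKO, with 20.5 and 20.2 RPM against 32.7, 44.2 and 44.9 (-0.98, limma adjusted p = 0.00385, and 0.128 with the replicate block), and the difference between the mutants did not pass (-0.94, limma adjusted p = 0.169). Tead3, a relative of TEAD4 below 10 RPM, fell in G9a cKO (-1.82, limma adjusted p = 0.0416). Yap1, the co-activator that TEAD factors need, was not called in either mutant (0.07 and 0.14).

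Among 8 primitive endoderm genes, of 12 listed, 1 was called: Lama1, a laminin chain of basement membrane, in cDKO (18.2 and 27.9 RPM against 7.54, 12.5 and 15.8, log2 fold change 0.98, limma adjusted p = 0.0413), in 4 of 14 settings. That call was 12.5% of the 8 genes, beside 6.34% of all loci in cDKO. It was 1 of the 5 genes at 10 RPM, where 15.8% of all loci were called. Gata4 and Gata6, the regulators of primitive endoderm, were not called in either mutant.

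Of 31 paralogs in the table, of 43 listed, 2 fell in G9a cKO, and 2 rose and 2 fell in cDKO. These calls were 6.45% and 12.9% of the 31, beside 1.79% and 6.34% of all loci. Of the 11 at 10 RPM, 1 was called in G9a cKO and 2 in cDKO. At that level 5.22% and 15.8% of all loci were called. Elf3, an epithelial ETS factor related to ELF5, fell in G9a cKO, from 28.8, 41.9 and 32.2 RPM in the controls to 13.4, 7.10 and 8.48 RPM, with no overlap. The fall was 3.64-fold (log2 fold change -1.87, SE 0.25, limma adjusted p = 4.97e-11). In cDKO, which also lacks G9a by its label, Elf3 held 44.4 and 68.2 RPM against 35.2, 32.9 and 38.0 (0.64, limma adjusted p = 0.17). The effects of the mutants on Elf3 differed by 2.51 (limma, adjusted p = 4.64e-08). Elf2 fell in cDKO, from 33.4 ± 3.16 (SD, n = 3) to 13.1 and 14.8 RPM (-1.26, limma adjusted p = 0.000239), and so did Ehf, from 661, 613 and 687 to 474 and 506 RPM (-0.41, limma adjusted p = 3.05e-05). Both calls were lost with the replicate block (limma, adjusted p = 0.218 and 0.293). Klf12 and Klf9, relatives of KLF4 below 10 RPM and named after their values were seen, rose in cDKO, with 10 and 5 reads against 0, 1 and 0, and 8 and 6 against 1, 2 and 1 (limma, adjusted p = 0.00389 and 0.0133). Klf17, with the most reads of the KLF paralogs, held 326 to 432 RPM in the group means and was not called, nor were the AP-2 genes Tfap2a, Tfap2b and Tfap2e. Tfap2a and Tfap2b had log2 fold changes of 1.12 and 0.87 in cDKO (limma, adjusted p = 0.123 and 0.0987).

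**Figure D3:**
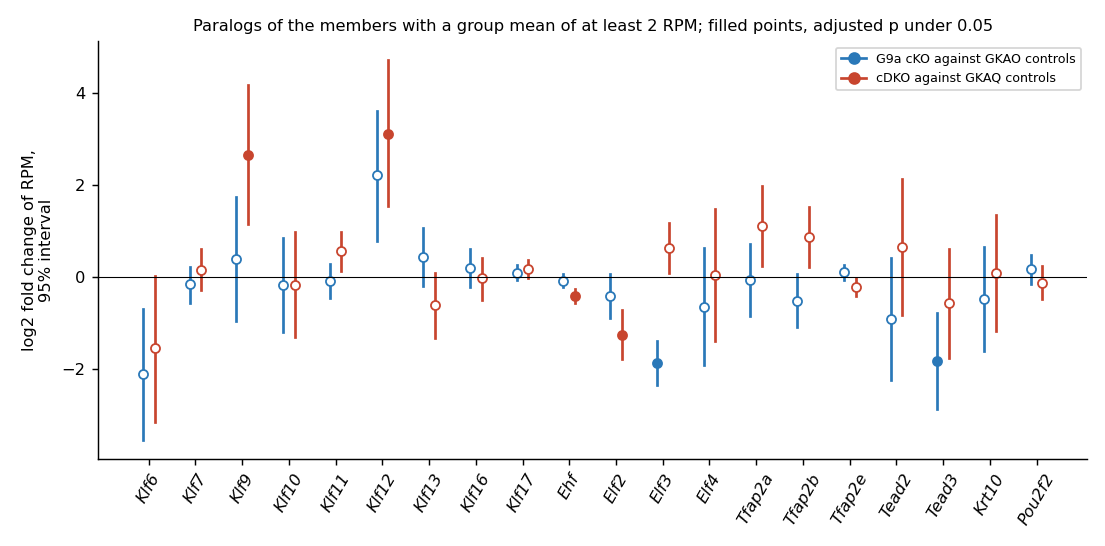
Log2 fold changes of RPM with 95% intervals (lines) for paralogs of the members with a group mean of at least 2 RPM, in G9a cKO and in cDKO against their own controls. Filled points mark an adjusted p under 0.05: Elf3 (-1.87) and Tead3 in G9a cKO, and Elf2, Ehf, Klf9 and Klf12 in cDKO.

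The median log2 fold changes in G9a cKO and cDKO were -0.22 and 0.13 for the pluripotency network, -0.25 and 0.14 for the trophectoderm and Hippo genes, 0.05 and 0.40 for the primitive endoderm genes and -0.32 and 0.16 for the paralogs. Over all loci they were -0.31 and 0.20. Some genes, such as Tead3, stand in 2 of these lists.

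The control groups also differed from each other in single genes of these lists. Of the pluripotency network 5 of 21 genes (23.8%) were called between GKAQ and GKAO controls, with Dppa3 higher in GKAQ (1020 against 494 RPM, limma adjusted p = 1.13e-46) and Esrrb, Tcl1, Nr5a2 and Rif1 lower (log2 fold changes from -0.63 to -0.48). All 5 were among the 13 at 10 RPM, and 14.8% of all loci at that level were called. In the main RNA test each mutant was set against the controls of its own prefix, as planned. With all 6 controls as a single group Rif1 in cDKO was at -0.03.

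Across the 11 libraries, the genes whose log2 values were most like those of each member with at least 10 RPM were chosen among 6940 named loci by Pearson r. They were Ptk2b (0.951) and Gm839 (0.940) for Klf4, Rbm7 (0.957) and Xrcc6 (0.955) for Pou5f1, and Zbtb9 (0.934) and 9130011J15Rik (0.903) for Tfap2c. The libraries share group and depth, and the highest values among so many loci are a description only.

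By percentile, H3K9me2 reads over the 10 genes in control oocytes ran from low to high among RefSeq genes. The reads were not corrected by input or IgG, so they are not a pure measure of the mark. The control libraries had a median of 4.02 RPM per 10 kb window. The range was narrow, with lower and upper 10% bounds of 2.64 and 5.32 RPM. Pou5f1, with RNA in every library, had 3.05 and 3.06 RPM per window in the 2 controls, at the 15.8 percentile of RefSeq gene spans. Krt8, near silent in controls, had 5.96 and 4.00 RPM per window, at the 90.2 percentile by their mean. The value of 4.00, from the deeper control library, lay near the median of that library's windows, 4.03 RPM. Tead4 and Elf5 stood at the 83.8 and 83.4 percentile. Klf4, Nanog, Tfap2c and Eomes stood between the 38.2 and 47.6 percentile, and Cdx2 and Krt18 at 57.6 and 60.9. Eomes, barely read in RNA, stood at 39.8, below Klf4 at 47.6, which had RNA in every library. The replicates for Cdx2 were far apart, with 5.39 and 2.56 RPM per window.

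No member changed in H3K9me2 by the tests fixed for windows or loci. Of all windows with a read, 1.85% were called in G9a cKO and 0% in cDKO, and none of the 29 member windows was called. At an unadjusted p under 0.05 stood 6 of the 29 in G9a cKO, beside 19.2% of all windows, and 0 in cDKO, beside 9.0%. Per locus 0% of 38419 loci were called in either mutant (limma), with 9063 and 5229 at an unadjusted p under 0.05. Values are scaled to each library's reads, so a change in the total amount of H3K9me2 cannot be seen. The mutant libraries were shallow, with 1109191 to 1881848 reads against 7048784 and 19128881 in controls, and a single member window held 1 to 16 reads in them against 17 to 118.

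**Figure D4:**
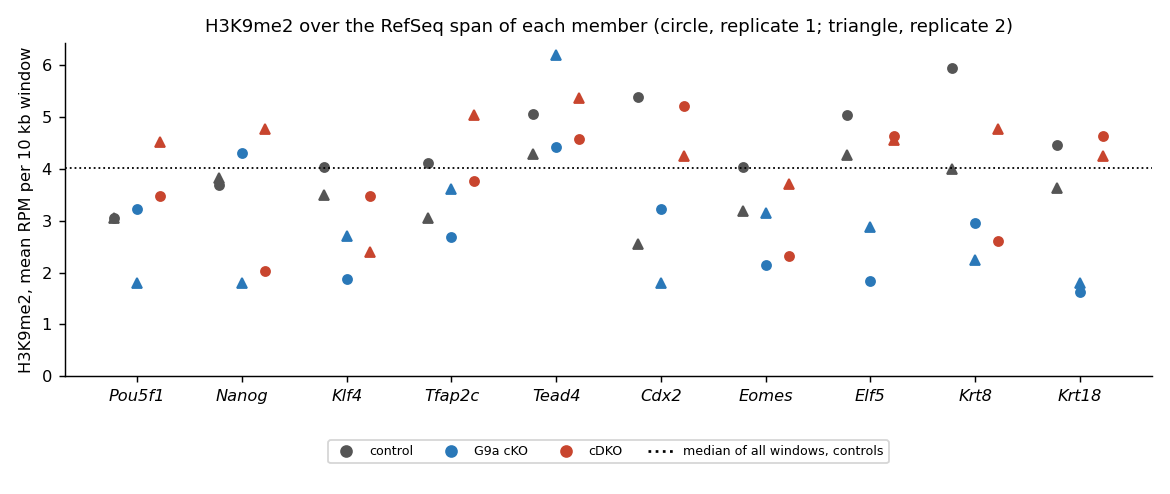
H3K9me2 over the RefSeq span of each member, as mean RPM per 10 kb window (linear axis from 0), with 1 point per library (circle, replicate 1, and triangle, replicate 2). The dotted line is the median of all windows in controls, 4.02 RPM. For Krt18, Klf4, Krt8, Elf5 and Eomes both G9a cKO points lie below both control points (for Eomes above them over its RNA locus), and the cDKO points of Krt18 lie at 4.64 and 4.25 RPM beside controls at 4.47 and 3.63.

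Within these limits, the fitted falls were largest for Krt18, Elf5, Krt8 and Klf4 among the 8 loci in G9a cKO. Krt18 held 1.62 and 1.80 RPM per window in the G9a cKO libraries, against 4.47 and 3.63 without deletion (log2 fold change -1.04, SE 0.23, limma adjusted p = 0.0765). Over its RNA locus Elf5 went from 4.97 and 3.69 to 1.79 and 2.40 RPM per window (-0.89, limma adjusted p = 0.105). Krt8 went from 5.96 and 4.00 to 2.96 and 2.25 (-0.80, limma adjusted p = 0.223). With controls thinned to the depth of the shallowest library its value was -0.05 (SE 0.78, limma adjusted p = 0.982). The thinning was a single random draw of reads, and the spread between such draws was not measured. Klf4 went from 4.04 and 3.50 to 1.88 and 2.70 (-0.63, limma adjusted p = 0.276). At full depth the groups did not overlap for these 4 genes, and none passed the test. Thinned, Krt18, Elf5 and Klf4 stood at -1.22, -1.08 and -0.78. With each locus extended by 10 kb on both sides, 3 members were called lower in G9a cKO: Klf4 (-1.01, limma adjusted p = 0.0196), Krt18 (-0.79, adjusted p = 0.0329) and Elf5 (-0.87, adjusted p = 0.0359), in a fit that called 13.9% of 38488 loci and 3.24% lower, 1248 against 4117 higher.
By the planned extents, 6 of the 8 member loci were lower in G9a cKO and 4 of 8 in cDKO, beside 49.7% and 43.1% of all loci. Of the 29 member windows 20 and 16 were lower, beside 60.3% and 55.9% of all windows. Over RefSeq spans, an extent added after the data were seen, 9 of 10 members were lower in G9a cKO and 5 of 10 in cDKO, beside 52.5% and 42% of all genes. The medians of the members were -0.46 and 0.04 over loci and over spans alike, beside 0.00 and 0.08 over all loci and -0.03 and 0.08 over all genes.

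The 2 genes whose RNA rose in cDKO showed no called H3K9me2 change there. Klf4 held 3.48 and 2.39 RPM per window in cDKO against 4.04 and 3.50 in controls (-0.33, 95% interval -1.07 to 0.41, limma adjusted p = 0.663). Krt8 held 2.61 and 4.78 against 5.96 and 4.00, with overlap (-0.41, 95% interval -1.24 to 0.42, limma adjusted p = 0.622). With thinned controls, in that single random draw, the Krt8 value was 0.35. In G9a cKO, where H3K9me2 of both genes was lower than in both controls at full depth, neither RNA was called. The other 6 RefSeq spans gave no called change either. Among the pluripotency factors, Pou5f1 held 3.23 and 1.80 RPM per window after G9a loss, and 3.48 and 4.52 in the double mutant, both above its controls. Nanog held 4.31 and 1.80, then 2.03 and 4.78, around controls of 3.69 and 3.82. Among the trophectoderm regulators, Tead4 held 4.43 and 6.21, then 4.58 and 5.37, against 5.06 and 4.30. Tfap2c held 2.69 and 3.61, then 3.77 and 5.05, against 4.11 and 3.06. Cdx2 held 3.23 and 1.80, then 5.22 and 4.25, between or near its unequal controls. Eomes held 2.15 and 3.16, then 2.32 and 3.72, against 4.04 and 3.19. Its direction in G9a cKO rests on the extent: both libraries lay below both controls over the RefSeq span (-0.39), and above them over its single-window RNA locus, with 3.77 and 4.51 against 3.55 and 3.19 (0.26). Neither passed (limma, adjusted p = 0.462 and 0.541).

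**Figure D5:**
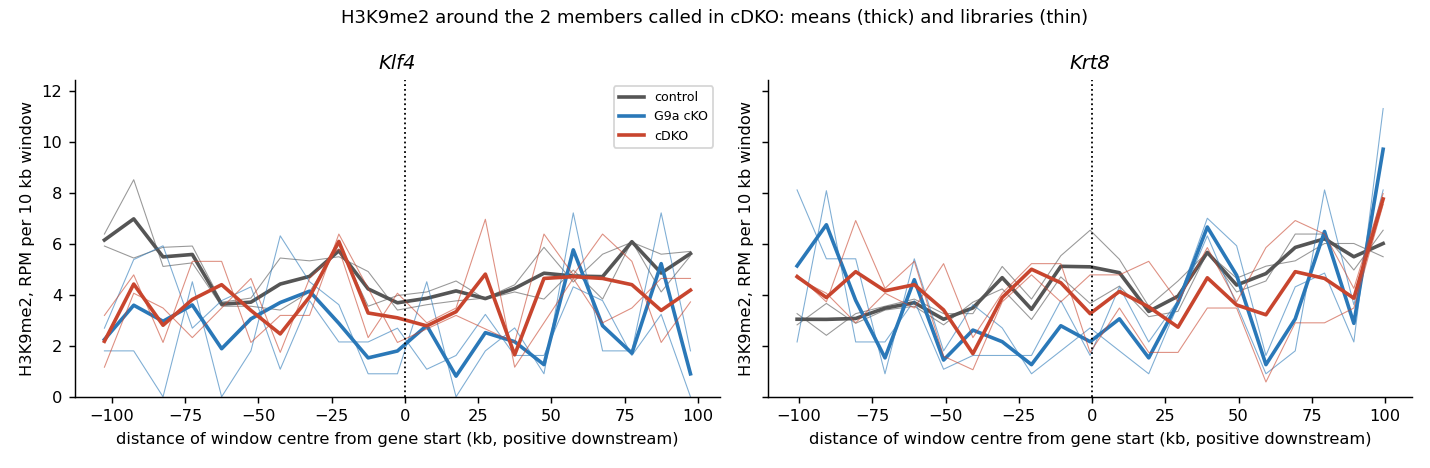
H3K9me2 in RPM per 10 kb window (linear axis from 0) against the distance of the window's centre from the gene start, up to about 100 kb to either side of Klf4 and Krt8, for control, G9a cKO and cDKO. Thick lines are means of the 2 libraries drawn as thin lines. At the window that holds the start, Klf4 had 3.97 and 3.40 RPM for control, 2.69 and 0.902 for G9a cKO, and 4.06 and 2.13 for cDKO. For Krt8 the values in that order were 6.53 and 3.66, 1.62 and 2.70, and 1.74 and 4.78.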

How the data were processed

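The members and gene lists were chosen with earlier results of these data known. The authors deposited both tables as log2 values, 1 column per library. The unit was read from the values: log2 RPM, that is reads scaled to a library total of 1000000, where empty features take 0.9 read. Of the values, 100% gave a whole read number (tolerance 0.05 read). GRCm38, Trim Galore, Bowtie2, HISAT2 2.1.0 and Bismark 0.19.0 are named, without roles, per the submitters' processing notes. The counting method, its strand setting and filters are not given in the sources used here. Another 4 columns of the H3K9me2 table match no sample and were not used.

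The main test was limma 3.58.1 (R 4.3.3, trend and robust moderation) on the deposited log2 values, 1 mean per group, over all 11 RNA or 6 H3K9me2 libraries, two-sided, Benjamini-Hochberg over all features of a contrast. It was also run on simulated reads of a fixed spread without prefix or animal effects, which does not check it against those. Windows without any read were left out, which left 255057. Loci used log2(mean RPM per window + 0.5). Gene names and coordinates came from the table, and spans and promoters from RefSeq GRCm38.p6. Named were all members and, of each other list, at most 4 called genes per mutant with the largest change and at least 10 RPM. Of them, any outside this rule are said to be so or stand as uncalled context chosen after their values were seen. Alternatives covered the filter, pseudocount, scaling, variance model, voom weights, controls, block, locus extent and each library left out. RefSeq spans and thinned controls (a single random draw of reads) were added after seeing the data. Tables and figures used Python 3.11.15, pandas 2.3.3, numpy 2.4.6 and matplotlib 3.10.9.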

Additional observations from a re-analysis of the deposited data

Results flagged for a closer look

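The effects of the mutants on Krt8 differed by 5.65 on the log2 scale, as tested by the interaction contrast (limma, adjusted p = 0.000129), with 20 and 16 reads in cDKO and 0 to 4 in all other libraries. The effects on Elf3 differed by 2.51 (limma, adjusted p = 4.64e-08), with a fall of 1.87 in G9a cKO (-1.87) and a value of 0.64 in cDKO that did not pass its own test.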

How the results depend on the processing

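Krt8 in cDKO was called in 14 of 14 settings (3.34 to 4.95) and Klf4 in 13 of 14 (1.53 to 2.01). With the replicate block by title number, 1 member remained called in cDKO, Krt8, and 972 of all loci were called in cDKO. In the GKAO set, same-number libraries correlated at 0.011 to 0.113 in their deviations from group means. Different-number libraries there stood lower, at -0.122 to 0.003. In the GKAQ set the same-number pair stood at 0 and the others at -0.001 to 0.001. Whether the numbers pair samples was not tested. Members called for the difference were 0 with log2(RPM + 1), 0 without trend and robust moderation and 0 with voom weights, and 1 to 2 when single libraries were left out. Klf4 was added without GKAO control replicate 3 (1.51, limma adjusted p = 0.045) and without GKAQ control replicate 1 (1.21, limma adjusted p = 0.0178), the latter in a fit that called 14705 of all loci against 417. Members called between controls were 0 to 1 when single libraries were left out. Member loci called for H3K9me2 in G9a cKO were 3 with loci extended by 10 kb and 0 otherwise. The cause was not tested.

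Directions reversed for these values, of which Dppa3 and Rif1 in cDKO were called in the main test: Pou5f1 in cDKO (-0.03, centred), Tfap2c in G9a cKO (-0.02 centred, -0.04 with voom weights, and from -0.20 to 0.26 without single libraries), Tfap2c in cDKO (from -0.75 to 0.57 without single libraries), the Tfap2c difference (from -0.75 to 0.57 likewise), Dppa3 (0.11) and Rif1 (-0.03) in cDKO with all 6 controls, and Krt8 H3K9me2 in cDKO (from -0.41 to 0.35, thinned controls). Thinned controls also moved Krt8 H3K9me2 in G9a cKO from -0.80 to -0.05. Both thinned values come from a single random draw, so the spread between draws is not known.

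Of the listed genes, calls were lost without the variance trend for Dppa3 in both mutants, for Stat3 and Tjp1 in G9a cKO, and for Elf2, Ehf and Amotl1 in cDKO. With voom weights they were lost for Dppa3 in G9a cKO and Elf2 in cDKO, with log2(RPM + 1) for Elf3 (-1.76, limma adjusted p = 0.0539) and Stat3 (0.48) in G9a cKO, Dppa3 in both mutants, and Elf2 and Amotl1 in cDKO. With the replicate block the cDKO calls of Dppa3 (-0.11, limma adjusted p = 0.499), Elf2 (-1.10, 0.218), Ehf (-0.28, 0.293) and Amotl1 (-1.13, 0.128) were lost. With all 6 controls Dppa3 in G9a cKO was lost at -0.88 (limma adjusted p = 0.34) against -0.36. Lama1 was lost in 10 and Rif1 in 11 of 13 alternatives.

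Over all loci, calls in G9a cKO were 34 with log2(RPM + 1), 179 without trend and 1197 with all 6 controls, against 689. In cDKO they were 1158 and 1154 under the first 2, against 2444. For the difference they were 102, 82 and, with voom weights, 193. Between controls there were 421 with log2(RPM + 1), and fewer still without trend, against 1490. H3K9me2 windows called in G9a cKO were 32053 over all windows, 0 without trend, 9151 centred, and 0 to 13627 without single libraries, against 4730. In cDKO they were 20532 over all windows, 34 with thinned controls and 1443 without control replicate 1, against 0. Depth limits the members at under 3 reads per library, for which no change could be detected, and the H3K9me2 of single genes.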

Other observations

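Loci within 100 kb of the members that were called are named here, after their values were seen. In cDKO they were 2 of 10 near Tead4, 1 of 6 near Nanog and 1 of 2 near Eomes. Near Pou5f1 1 of 11 was called there, and near Krt18 1 of 7, which was Krt8. In G9a cKO they were 2 of 10 near Tead4 and 1 of 6 near Nanog. Over all loci 6.34% were called in cDKO and 1.79% in G9a cKO. Among loci at 10 RPM the shares were 15.8% and 5.22%. Near Nanog, Dppa3 fell in both mutants (-0.36 and -0.41). Near Eomes, Golga4 fell in cDKO (-0.68, limma adjusted p = 7.27e-14). Near Tead4, Tspan9 fell in G9a cKO (-1.37, limma adjusted p = 3.57e-06), Tulp3 fell in cDKO (-0.66, limma adjusted p = 0.00212), and an unnamed locus rose in both (0.42 and 0.49). Near Pou5f1, H2-Q6, at a mean of 0.775 RPM, rose in cDKO (limma adjusted p = 0.0179). Of the 3 loci near Klf4, none was called.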
